A study of Drosophila melanogaster with 6 samples.

Results

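The mitochondrial ribosomal protein genes are the 73 rows of 17609 whose names begin with mRpL or mRpS followed by a number. Names alone chose them. By the ribosomal nomenclature, 49 encode proteins of the large subunit and 24 of the small subunit; mRpS30 and mRpS18A, despite their names, belong to the large subunit in the human particle. Reads were counted for 71 of the 73 genes.

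The study asked what goes along with RNA interference against foxo in flight muscle and in distant tissues; foxo encodes a transcription factor that insulin signalling holds back. All flies carried Act88F-Gal4, a driver active in indirect flight muscle. It was crossed to UAS-FoxoRNAi in the foxo RNAi group and to the w1118 strain in the control group. Flies were 10 days old and had been kept on a sugar and yeast diet. Total RNA came from 3 dissections: the thorax, which the labels call skeletal muscle, the gut, and the carcass without eggs and gut, which the labels call fat body, with 1 library for each genotype and tissue. The driver targets flight muscle, which lies in the thorax; gut and carcass came from flies of the same crosses.

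Mitochondria keep a small genome of their own, and its messages are translated inside the organelle by a dedicated ribosome. In animals, that ribosome makes core membrane subunits of the respiratory chain and of ATP synthase, while all of its own proteins are encoded in the nucleus, made in the cytosol and imported. Some of these proteins descend from the bacterial ribosome, and others were acquired by mitochondria and have no bacterial relative. Flight muscle is among the tissues richest in mitochondria.

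The libraries held 13274574 to 34385727 counted reads, the largest being the foxo RNAi thorax. Marker genes followed the labelled tissues in large part. Of 18 muscle genes, the summed reads made up 5.43% and 4.36% of the control and foxo RNAi thorax libraries and no more than 0.411% elsewhere. Of 12 gut epithelium genes, they made up 11.4% and 8.39% of the gut libraries, and of 12 fat body genes, 10.6% and 7.55% of the carcass libraries. The thorax libraries also held fat body markers, at 4.55% and 5.32%. Gut epithelium markers were higher in the foxo RNAi thorax (0.201%) than in the control thorax (0.00756%). Ovary and eggshell markers were higher in the foxo RNAi carcass (1.00%) than in the control carcass (0.383%), although eggs had been removed. Photoreceptor markers went the other way in carcass, from 0.130% in the control to 0.00970%. In bulk RNA, fewer cells of a type and less RNA per cell cannot be told apart. The targeted gene foxo had 3425 reads in the control thorax and 4984 in the foxo RNAi thorax, a ratio of scaled counts of 0.717 (95% interval 0.686 to 0.749). Its ratios in gut (0.783) and carcass (0.764) were also below 1.

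As a genomic set, the members were short and crowded. In Release 6 coordinates their median summed exon length was 783 bases, against 1743 bases for all coding genes, and it ranged from 327 bases in mRpL34 to 2078 in mRpS30. They lay on chromosome arms 2L (12 genes), 2R (12), 3L (17), 3R (21) and X (11). A neighbour that starts in the opposite direction within 1000 bases of the start was present for 57 of 73 members (78.1%), against 34.7% of all coding genes. The end of 39 members (53.4%) overlapped a gene on the opposite strand, against 20.4% of all coding genes, and 43 (58.9%) overlapped some other coding gene, against 41.0%. The library kit keeps strand, but whether the authors' counting used it is not stated in the sources used here. Reads of a member and of an overlapping gene on the other strand may therefore not be separable. This holds for 40 measured members, among them mRpL1, mRpL9, mRpL11, mRpL15, mRpL16, mRpL18, mRpL24, mRpL28, mRpL30, mRpL34, mRpL35, mRpL41, mRpL48, mRpL51, mRpS2, mRpS9, mRpS18C, mRpS21, mRpS23, mRpS24, mRpS29 and mRpS33, which are named with values below.

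mRpL13 (2L, 18858028 to 18859248, minus strand) and mRpL53 (2R, 13954195 to 13955664, plus strand) were listed at 0 reads in all 6 libraries. mRpL13 lies inside CG10602 on the same strand, and mRpL53 lies inside AGO1 on the opposite strand and has the span of CG33155 on its own strand. Coding genes wholly inside another coding gene had no reads in these files, so both were treated as not measured rather than as silent. CG10602 itself held 1520 to 3465 reads a library and AGO1 1856 to 8014. mRpS9 spans 13391 bases and hosts wtrw in its span, which makes its count uncertain.

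The members together took up a small share of each library, and the order of the libraries differed from that of the other ribosome. They made up 0.258% of counted reads in the control thorax and 0.226% in the foxo RNAi thorax. The shares were 0.149% in the control gut and 0.184% in the foxo RNAi gut. In carcass the control stood at 0.171% and the foxo RNAi library at 0.242%. The highest share was thus in the control thorax and the lowest in the control gut, and the foxo RNAi carcass exceeded the foxo RNAi thorax. Exact binomial 95% intervals were narrow (0.256 to 0.261% in the control thorax, 0.240 to 0.245% in the foxo RNAi carcass), and cover counting error only. The 93 genes listed for the cytosolic ribosome, some of them only named as like its proteins, took 7.09 to 15.4% of reads, with the highest shares in the carcass. The 83 nuclear genes of the respiratory chain, the machine that mitochondrial translation serves, took 3.52% and 3.29% in thorax and between 1.58 and 1.72% in gut and carcass.

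**Figure D1:**
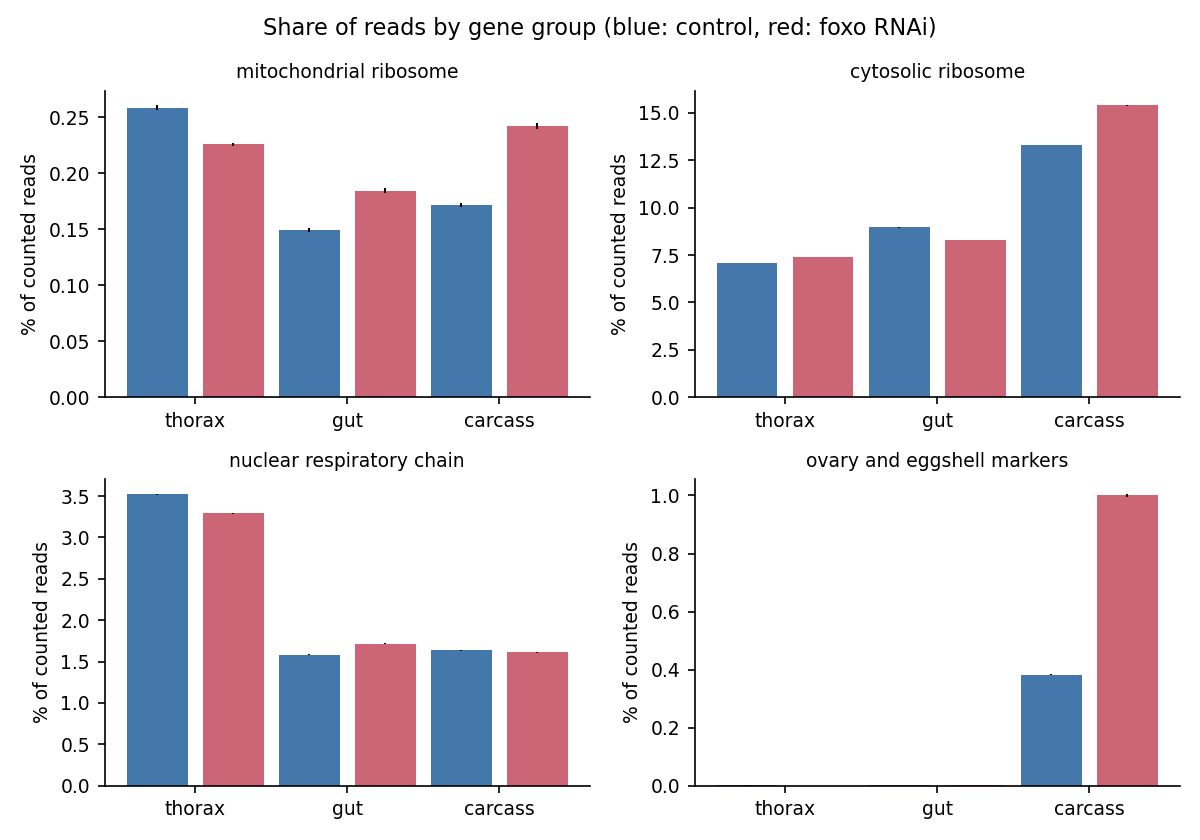
Share of counted reads in each of the 6 libraries (bars from 0, with exact binomial 95% intervals) for the members, the cytosolic ribosomal protein genes, the nuclear respiratory chain genes and the ovary and eggshell markers, each on its own axis in percent. The members ran from 0.149% in the control gut to 0.258% in the control thorax, and ovary and eggshell markers reached 1.00% in the foxo RNAi carcass.

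Levels were compared between genes per kb of exon, as counts per 1e+06 reads after TMM scaling (CPM). The median over the 71 measured members was 30.6 and 26.5 CPM per kb in the control and foxo RNAi thorax, 31.4 and 33.4 in gut, and 21.8 and 29.7 in carcass. The SD over members was 22.4 and 16.5 CPM per kb in the thorax libraries, against 12.8 and 12.7 in gut and 8.73 and 10.5 in carcass. Thorax thus held both the highest and the lowest levels: mRpS5 stood at 104 CPM per kb in the control thorax and mRpS24 at 4.99.

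Averaged over the 6 libraries, the highest levels per kb belonged to mRpL28 (66.1 CPM per kb, SD 16.4 over libraries), mRpS7 (62.1, SD 23.6), mRpL12 (61.5, SD 17.4), mRpS30 (54.9, SD 24.3), mRpS9 (51.8, SD 9.83) and mRpL45 (51.5, SD 13.4). mRpL12 is the mitochondrial version of the stalk protein that recruits translation factors, mRpS7 a core protein of the small subunit head, and mRpL45, in mammals, anchors the ribosome to the inner membrane. The lowest were mRpS24 (7.91, SD 2.28), mRpL21 (13.4, SD 5.13), mRpS21 (14.2, SD 4.12), mRpL11 (15.6, SD 2.78), mRpL48 (18.8, SD 6.70) and mRpS6 (19.0, SD 3.55). Neighbours within each of these sets lay closer together than the larger of their SDs, except mRpS24 and mRpL21. mRpS5 had the widest span of the members named here, its highest library standing 5.61 times above its lowest, against 1.65 times for mRpS9.

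**Figure D2:**
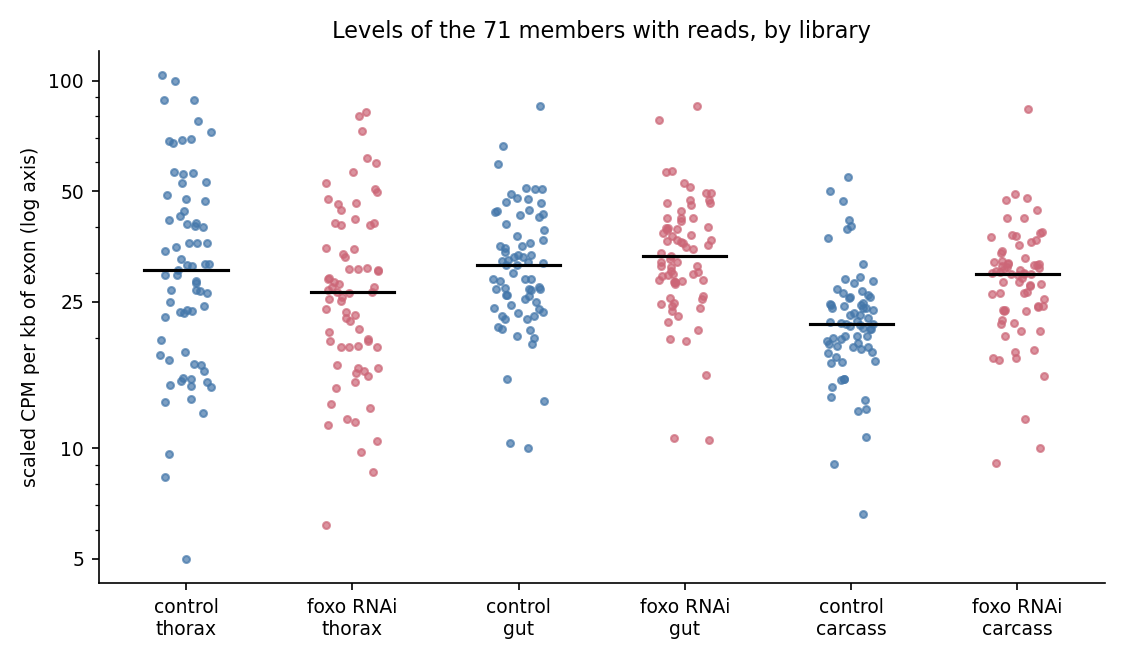
Level of each of the 71 members with reads in each library, in scaled CPM per kb of exon on a log axis (points, blue control and red foxo RNAi; black lines, medians). Medians lay between 21.8 and 33.4, and the points spread most in the 2 thorax libraries.

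For the tissues, edgeR's quasi-likelihood test was run on all 6 libraries, with genotype as a term and Benjamini-Hochberg adjustment over 9293 genes. The 2 libraries of a tissue are of different genotypes, so the test's spread is what a shared genotype term leaves over, on 2 residual degrees of freedom. Between thorax and gut, 20 of 71 members passed an adjusted p of 0.05, against 54.6% of all genes tested. In thorax, 6 were higher, against 28.1% of all genes, and 14 lower, against 26.5%. Between thorax and carcass, 15 passed, against 41.2%: 9 were higher in thorax (background 21.9%) and 6 lower (19.3%). Between gut and carcass, 4 passed, against 43.4%, and all 4 were higher in gut (background 20.7%, with 22.8% of genes lower). As shares of the 71 members, these counts lay below the background in each comparison and direction, nearest to it for lower levels in thorax than in gut; the gap itself was not tested. These 3 comparisons share libraries and are not independent.

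The members varied in their tissue differences. The SD of the log2 difference over members was 0.69 between thorax and gut, 0.71 between thorax and carcass and 0.27 between gut and carcass. Over all genes tested it was 3.00, 2.03 and 2.59. The median member differed by -0.23 (log2) between thorax and gut, 0.17 between thorax and carcass and 0.36 between gut and carcass. The sign of such medians depended on the scaling: with total counted reads in place of TMM they were 0.27, -0.01 and -0.31, while the median of all genes moved to 0.43, -0.21 and -0.77. Relative to the median of all genes the members stood at -0.17, 0.20 and 0.47 with TMM and at -0.16, 0.20 and 0.47 with total reads. Other alternatives moved these distances: limma on RPKM values gave 0.13, -0.00 and -0.09. Without the foxo RNAi thorax the value between thorax and gut was 0.02. Between thorax and carcass it was -0.00 without the control thorax and -0.03 without the control carcass. The counts split by direction moved likewise. With total reads, 14 members were called higher and 5 lower in thorax than in gut, 6 higher and 9 lower in thorax than in carcass, and 0 higher and 2 lower in gut than in carcass. Of all 9293 genes, 4996, 4051 and 5194 passed in either direction with that scaling. The distance from the members' median is given beside the leading members.

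Genes high in thorax were led by mRpS5 (3L, 24537236 to 24543534, plus strand), whose product is the mitochondrial relative of bacterial S5 at the channel by which messages enter the small subunit. It had 174 and 123 CPM in the control and foxo RNAi thorax, 53.7 and 69.8 in gut, and 33.4 and 31.1 in carcass. Both thorax libraries stood above all others. The log2 difference was 1.25 (SE 0.27, adjusted p = 0.0118) against gut and 2.20 (SE 0.27, adjusted p = 0.0044) against carcass, or 1.48 and 2.03 above the members' median. mRpS5 overlaps no other coding gene.

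mRpL16 (X, 1890256 to 1891482, plus strand), a large-subunit protein close to the peptidyl transferase centre, had 74.2 and 66.1 CPM in the thorax libraries, 29.1 and 32.6 in gut and 21.5 and 26.2 in carcass. The difference was 1.19 (SE 0.21, adjusted p = 0.0063) against gut and 1.56 (SE 0.21, adjusted p = 0.0056) against carcass, or 1.42 and 1.39 above the members' median. The thorax libraries again stood apart from the rest. mRpL41 (2R, 15217024 to 15217617, minus strand), a large-subunit protein without a bacterial relative, had 28.2 and 24.3 CPM in thorax, 14.8 and 14.4 in gut, and 8.0 and 9.35 in carcass. Its difference was 0.84 (SE 0.24, adjusted p = 0.0321) against gut and 1.60 (SE 0.25, adjusted p = 0.0077) against carcass, or 1.07 and 1.43 above the members' median. The genes that overlap these members on the opposite strand did not share the pattern: arm, at mRpL16, was lower in thorax than in gut (log2 difference -0.85, adjusted p = 0.0335), and so was CG11808, at mRpL41 (-1.26, adjusted p = 0.0248).

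mRpS30 (X, 15786047 to 15788288, plus strand), which overlaps no coding gene, had 184 and 167 CPM in thorax, 96.9 and 103 in gut, and 55.5 and 78.3 in carcass. It was higher in thorax by 0.82 (SE 0.23, adjusted p = 0.0310) against gut and by 1.41 (SE 0.23, adjusted p = 0.0094) against carcass, or 1.04 and 1.23 above the members' median. mRpS7 and mRpS33 completed the set of 6 members that were higher in thorax than in each of the other tissues, with differences of 0.81 and 0.76 against gut (adjusted p = 0.0290 and 0.0337). mRpS2, a small-subunit relative of bacterial S2, was higher in thorax than in carcass (1.21, SE 0.36, adjusted p = 0.0438). Its difference was 1.84 between the control libraries and 0.53 between the foxo RNAi libraries.

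Lower levels in thorax were led by mRpL51 (2L, 8516753 to 8517380, minus strand), a large-subunit protein without a bacterial relative. It had 7.81 and 6.14 CPM in thorax, 27.6 and 27.8 in gut, and 16.2 and 20.0 in carcass. The thorax libraries lay below all others, by -1.99 (SE 0.27, adjusted p = 0.0025) against gut and -1.38 (SE 0.26, adjusted p = 0.0136) against carcass. It lay at -1.77 and -1.55 from the members' median. mRpL34, a very short relative of bacterial L34, was lower than in gut by -1.91 (SE 0.33, adjusted p = 0.0060), from 51 and 107 reads in thorax and 106 and 123 in gut.

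mRpL35 (-1.49, SE 0.24, adjusted p = 0.0044), mRpL55 (-1.48, SE 0.30, adjusted p = 0.0097) and mRpL33 (-1.28, SE 0.27, adjusted p = 0.0113) followed against gut. Against carcass the next after mRpL51 were mRpL55 (-1.09), mRpL35 (-0.92), mRpL15 (-0.87) and mRpL19 (-0.84), with adjusted p between 0.0290 and 0.0431. All 14 members that were lower in thorax than in gut encode large-subunit proteins. Of the 24 small-subunit members, 3 were higher in thorax than in gut (mRpS5, mRpS7, mRpS33) and 0 lower by the same edgeR test. No test of the difference between the subunits was made.

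Of the 14 members that were lower in thorax than in gut, 9 overlap a coding gene. The overlapping gene was also lower for 6 of these, higher for 1 and did not pass the test for 2. PIG-U, which overlaps mRpL51, differed between thorax and gut by -2.12 (adjusted p = 0.0011), CG6028 at mRpL35 by -2.96 (adjusted p = 0.00067) and CG8414 at mRpL34 by -1.30 (adjusted p = 0.0044). Going the other way, CG11617 at mRpL10 was higher in thorax by 6.77 (adjusted p = 0.00047). frtz at mRpL48 differed by 0.27 (adjusted p = 0.413) and CG1750 at mRpL32 by -0.90 (adjusted p = 0.0910). mRpL55, mRpL33, mRpL22, mRpL19 and mRpL12 overlap no coding gene and were lower in thorax than in gut too. Among the 30 members that overlap none, 3 were higher and 5 lower. The part of overlapping reads in the other values was not tested.

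**Figure D3:**
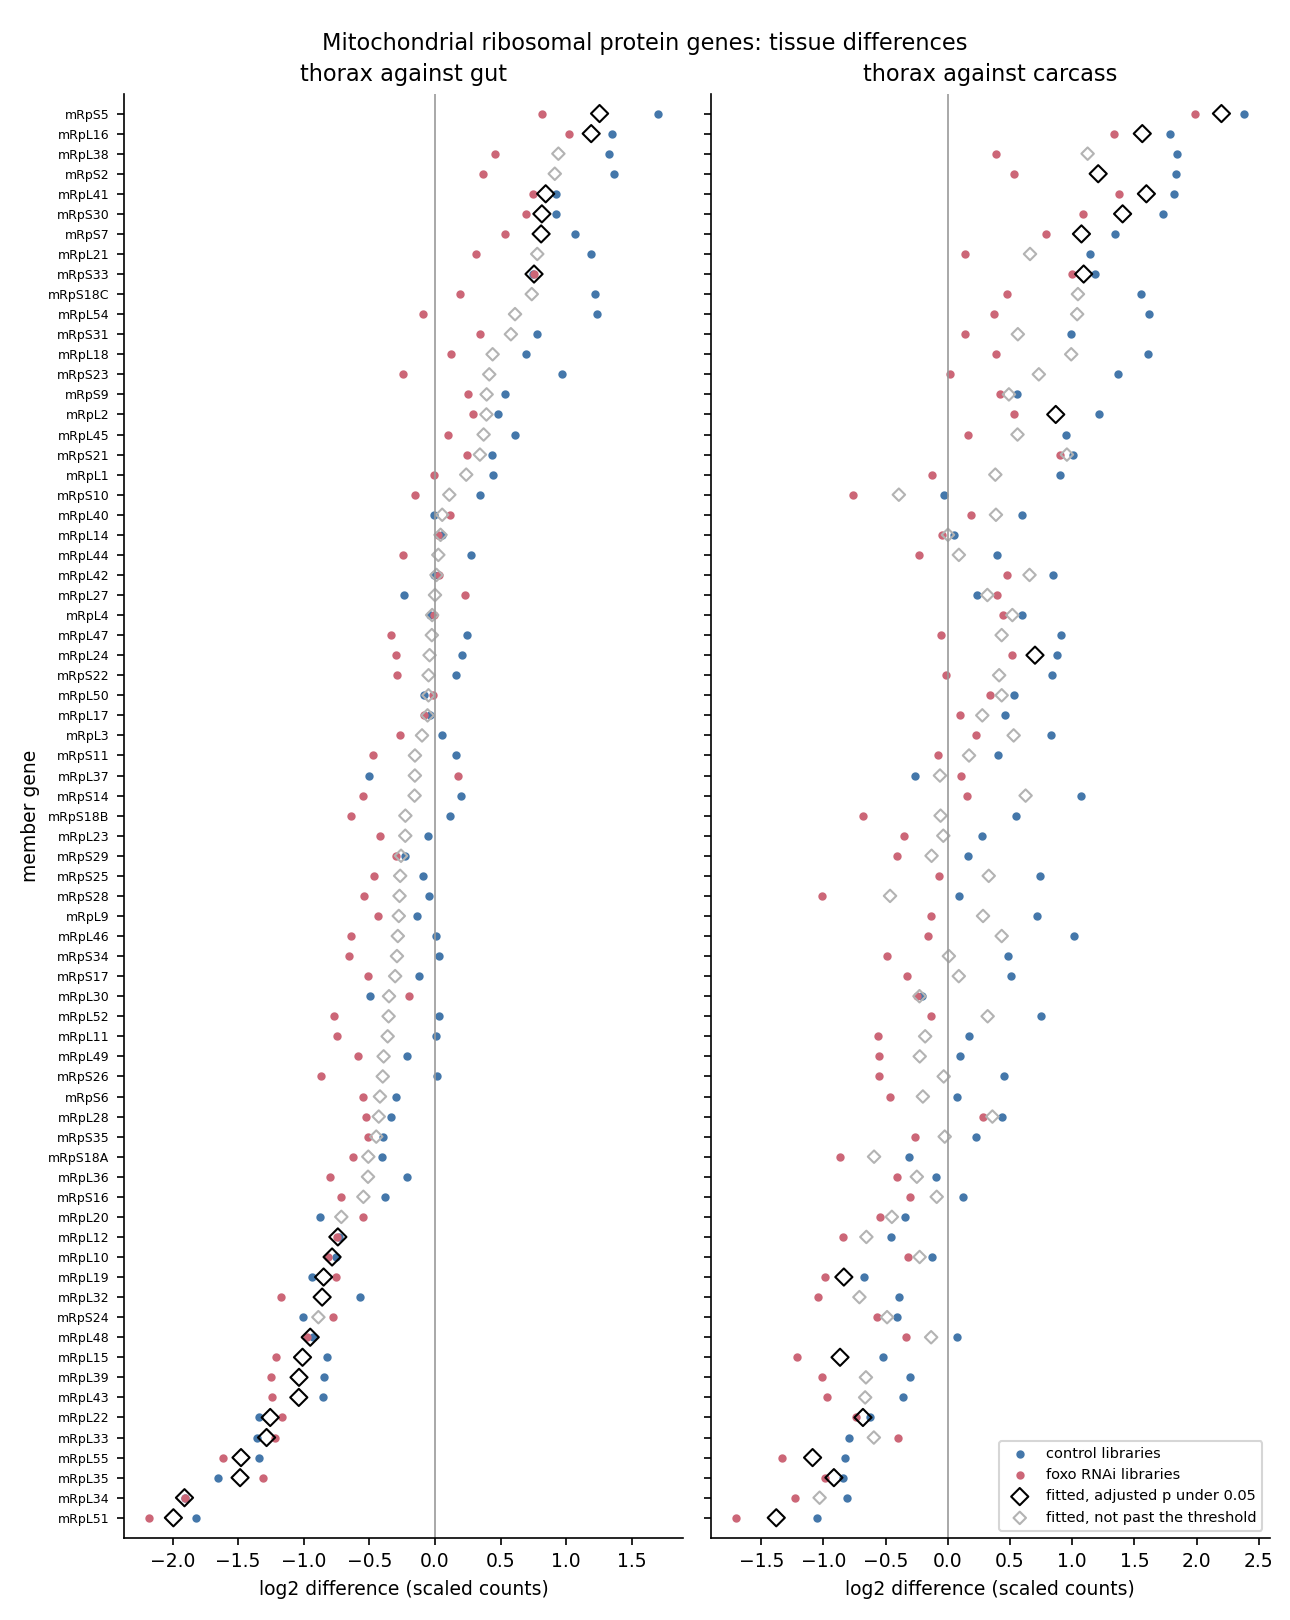
Log2 difference of each of the 71 measured members between thorax and gut (left) and thorax and carcass (right), ordered by the left panel. Dots are the differences within the control (blue) and the foxo RNAi libraries (red), and diamonds are the fitted differences, black where the edgeR adjusted p was under 0.05. mRpL51 and mRpL34 lie at the low end near -2 in the left panel, and mRpS5 reaches 2.20 in the right panel.

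Between gut and carcass, the members called were all higher in gut: mRpS5 (0.95, SE 0.26, adjusted p = 0.0359), mRpL48 (0.82, SE 0.25, adjusted p = 0.0479), mRpL28 (0.79, SE 0.18, adjusted p = 0.0204) and mRpL24 (0.74, SE 0.21, adjusted p = 0.0396). Without any 1 of the 4 gut and carcass libraries, no member passed edgeR's threshold in this comparison, with 0 to 22 at an unadjusted p under 0.05. Fewer of all genes passed in those fits as well. The gut libraries were both above the carcass libraries for 46 of 71 members (background 35.6%) and both below for 2 (background 39.9%), on the TMM scale. Thorax stood above carcass in that sense for 28 members (37.4%) and below for 19 (38%). Thorax stood above gut for 15 (40.5%) and below for 27 (43.1%).

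Shorter members tended to be lower in thorax. Across the 71 members, Spearman's rho between exon length and the log2 difference was 0.33 for thorax against gut, 0.29 for thorax against carcass and -0.15 for gut against carcass; members share libraries and are not independent. Over 4452 coding genes in the same range of lengths the values were 0.02, -0.02 and -0.04, and over all 9278 coding genes tested they were 0.23, 0.18 and -0.13. The 23 shortest members, up to 704 bases, had a median difference of -0.35 between thorax and gut, the 25 in the middle -0.23, and the 23 longest, from 973 bases, -0.02.

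The genes that surround the mitochondrial ribosome in function were distributed otherwise. Of 64 respiratory chain genes tested, 50 were higher and 1 lower in thorax than in carcass, with a median log2 difference of 1.30, and 25 were higher and 1 lower in thorax than in gut (median 0.45). In gut, 36 were higher than in carcass and 0 lower by edgeR's test (median 0.83). Of 83 genes listed for the cytosolic ribosome, 28 were lower and 1, RpL24-like, higher in thorax than in gut (median -0.80). In thorax, 15 were lower and 0 higher than in carcass by the same test (median -0.81). Of 15 genes for expression of the mitochondrial genome, 2 were higher in thorax than in gut and 1 lower. These 2 were TFAM, which packages mitochondrial DNA (2.58, SE 0.54, adjusted p = 0.0112), and mtRNApol, the mitochondrial RNA polymerase (1.10, SE 0.22, adjusted p = 0.0100). Among 15 entries for mitochondrial tRNA synthetases, 1 was higher and 1 lower in that comparison. CG4573 was entered there under both AsnRS-m and GluRS-m, and was neither the higher nor the lower gene. Among 7 translation factors 1 was higher and 2 lower. tko and bonsai encode small-subunit proteins under names outside the mRp series. Neither passed in any tissue comparison, with differences between thorax and gut of -0.35 (adjusted p = 0.228) and -0.50 (adjusted p = 0.126).

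Within a tissue, genotypes were compared as a pair of libraries, 1 for each genotype. These ratios carry no p-value, and intervals cover counting error only, not the spread between flies or dissections. A gene was called where the pair held at least 30 reads, the ratio of scaled counts was at least 2-fold and the nearer bound of its 95% interval at least 1.5-fold. By that rule few members were called. In thorax, 1 was higher (mRpL37; background 3.56% of 8887 genes) and 1 lower (mRpS23; background 2.72%). In gut, 0 were called (background 2.22% higher, 3.18% lower), and in carcass 1 was higher (mRpL37; background 3.41%) and 0 lower (background 10.2%).

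A genotype effect shared by the 3 tissues was tested with edgeR in the model of the tissue comparisons, where tissue acts as the block; this test was added after the values were seen. No member passed an adjusted p of 0.05 (0 of 71, against 0% of 9293 genes). At an unadjusted p under 0.05, edgeR had 1 member, mRpL37, and 637 genes in all. For mRpL37 the log2 difference was 1.09 (SE 0.19, adjusted p = 0.447). DESeq2's Wald test on the same model gave mRpL37 an adjusted p of 0.0065, as the 1 member among 121 genes past 0.05. For mRpL12 the edgeR difference was 0.35 (SE 0.17, adjusted p = 0.795). The median member differed by 0.08, with 47 members above 0 and 24 below. Shifts of opposite sign in different tissues offset each other in this model.

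Small shifts shared by many members were more common. In thorax the interval of the ratio lay wholly below equality for 43 of 71 members, against 28.6% of all genes, and wholly above for 6, against 30.3%. The median log2 ratio was -0.21, against 0.00 for all genes. In carcass it lay above equality for 52 members, against 39.4%, and below for 2, against 33.9%, with a median of 0.35 against 0.06. In gut it lay above for 11 members, against 23.4%, and below for 1, against 26.3%, with a median of 0.07 against -0.01. For 31 members the interval was below equality in thorax and above it in carcass. The ratio was above 1 in all 3 tissues for 15 members and below 1 in all 3 for 3. These counts across tissues were not made over all genes. The 31 members are about as many as the 43 of thorax and the 52 of carcass, among 71, imply without any link between the tissues.

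Scaling set how many intervals cleared equality, but not the side on which thorax and carcass fell. With total counted reads, 31 members lay below equality in thorax, against 21.6% of all genes, and 11 above, against 39.1%. In carcass 63 lay above, against 50.8%, and 0 below, against 26.7%. In gut, that scaling put 43 members above equality, in place of 11, where 48.2% of all genes were above. The members' median stood at -0.21, 0.08 and 0.29 from that of all genes in thorax, gut and carcass, whichever of the 3 scalings was used, since scaling moves all genes of a pair alike.

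By subunit, the thorax shift was larger for the small subunit. Its 24 members had a median log2 ratio of -0.36, with 18 intervals below equality and 0 above, while the 47 measured large-subunit members had a median of -0.16, with 25 below and 6 above. In carcass the medians were 0.36 and 0.35. The 28 measured members without bacterial relatives all had a ratio above 1 in carcass, as did 39 of 43 with bacterial relatives. Over all genes, 4598 of 8589 had a ratio above 1 there. No test of these differences was made.

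**Figure D4:**
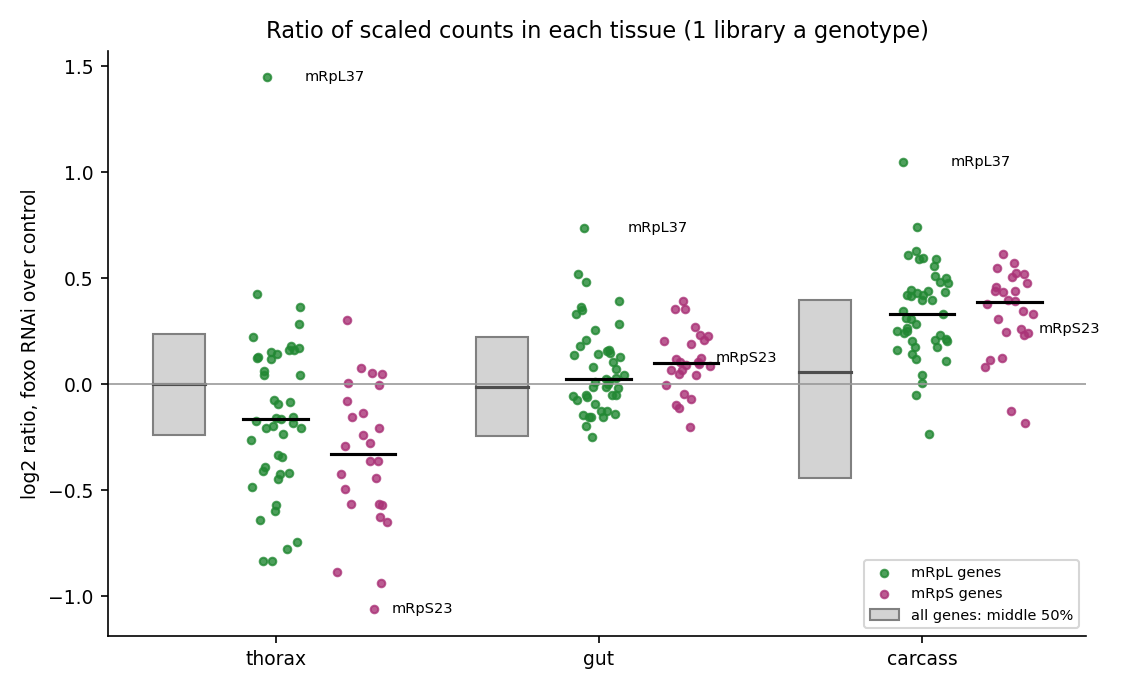
Log2 ratio of scaled counts, foxo RNAi over control, of each measured mRpL and mRpS gene in each tissue (points; black lines, medians), beside the middle 50% and the median of all genes (grey boxes). The members lay mostly below 0 in thorax and above 0 in carcass, with mRpL37 at 1.45, 0.74 and 1.05.

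The lowest ratios in thorax belonged to mRpS23, a small-subunit protein without a bacterial relative (2L, 13834250 to 13835072, minus strand), with 584 control reads and 568 from the deeper foxo RNAi library. Its ratio was 0.479 (95% interval 0.426 to 0.539), and it overlaps Polr2C on the opposite strand. mRpS18C followed at 0.522 (551 and 584 reads), mRpS2 at 0.541 (1526 and 1675 reads) and mRpL38 at 0.561 (1893 and 2154 reads). In gut these 4 genes had log2 ratios of 0.12, 0.07, 0.08 and 0.00, and in carcass 0.26, 0.12, 0.39 and 0.59. The highest in thorax after mRpL37 were mRpL33 (1.34, 0.43 on the log2 scale), mRpL27 (1.29) and mRpS24 (1.23), the last with an interval that spanned equality.

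In carcass, mRpL37 was followed by mRpL1, of the mobile stalk by the tRNA exit site, with 480 control and 766 foxo RNAi reads, a ratio of 1.67 (1.49 to 1.88). Next came mRpL9 (1.55, from 352 and 519 reads) and mRpS29 (1.53, from 628 and 918 reads), the relative of the mammalian GTP-binding protein DAP3. The lowest were mRpL24 (0.850), mRpS9 (0.880), mRpS5 (0.917) and mRpL28 (0.966), of which the first pair had intervals below equality. In gut the highest after mRpL37 were mRpL54 (1.43), mRpL36 (1.40) and mRpS11 (1.31), and the lowest were mRpL35 (0.841), mRpS17 (0.868), mRpL20 (0.873) and mRpL30 (0.899). Of these 4, only mRpL35 had an interval below equality.

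Other mitochondrial genes did not all move with the members. In the foxo RNAi carcass, respiratory chain genes had a median log2 ratio of -0.15, with 45 of 63 intervals below equality and 2 above, and cytosolic ribosomal protein genes a median of 0.08. With total counted reads the respiratory chain median in carcass was 0.02. In gut, cytosolic ribosomal protein genes had a median of -0.34, with 79 of 83 intervals below equality and 1 above. Respiratory chain genes had a median of -0.13 there, with 37 of 63 below and 8 above. With total counted reads these gut medians were -0.11 and 0.11. Intervals in carcass were above equality for 3 of 7 translation factors and 8 of 15 genes of mitochondrial genome expression. They were also above for 6 of 15 entries for tRNA synthetases, among them CG4573, counted under both AsnRS-m and GluRS-m. In each of these lists 0 lay below equality. In thorax, 9 of the 15 genes of mitochondrial genome expression had intervals below equality and 1 above. TFAM was called lower there, with 8647 control and 6216 foxo RNAi reads, a ratio of 0.354 (0.343 to 0.366). Respiratory chain genes in thorax had a median of 0.01, with 27 intervals above and 27 below. tko and bonsai had ratios of 1.19 and 0.802 in thorax and of 1.21 and 1.21 in carcass.

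Markers of other tissues also differed between the carcass libraries, in both directions. Of 12 ovary and eggshell markers, 9 had the read minimum in carcass, 5 were called higher in the foxo RNAi library and 0 lower, and their median log2 ratio was 1.02; 3 were at 0 in each carcass library. Of 9 photoreceptor markers, 7 were called lower. Of 8 neuronal markers, 7 had the read minimum, 6 were called lower and 7 had intervals below equality, with a median of -2.67. Of 12 gut epithelium markers 9 were called lower, while 4 of 12 fat body markers were called lower. In thorax, 9 of 12 gut epithelium markers and 4 of 9 photoreceptor markers were called higher. The gut libraries differed too. Intervals lay above equality for 14 of 14 muscle markers with the read minimum, against 23.4% of all genes. They lay below for 8 of 9 fat body, 9 of 12 gut epithelium and 7 of 8 Malpighian tubule markers, against 26.3%, and above for 0, 2 and 1 of these. The part of these cells in the members' shifts was not tested.

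mRpL37 (3R, 10782563 to 10784092, minus strand), which encodes a large-subunit protein without a bacterial relative, was the member with the highest ratio in every tissue. It had 383 reads in the control thorax and 2121 in the foxo RNAi thorax, 299 and 575 in gut, and 445 and 877 in carcass. The ratios were 2.73 (95% interval 2.45 to 3.05) in thorax, 1.67 (1.45 to 1.93) in gut and 2.07 (1.84 to 2.32) in carcass. It was higher in 3 of 3 foxo RNAi libraries, and in gut it stayed under the 2-fold rule. Besides mRpL37, mRpL12 was the other member with an interval above equality in all 3 tissues, at 1.17, 1.15 and 1.50. Of 7420 genes with the read minimum in every tissue, 9 had ratios at or above those of mRpL37 in all 3 tissues, itself included. The others were CG12224, CG32302, CG3397, Cyp12d1-d, Cyp6a23, TotC, betaTub60D and verm, a comparison added after its values were seen.

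mRpL37 overlaps no coding gene. Upstream, a coding gene on the opposite strand starts 291 bases from it; the ratios of that gene are not given here. The downstream neighbour, CG42633, 295 bases away, had 16 reads in the control thorax and 120 in the foxo RNAi thorax. Its ratio was 3.60 (2.18 to 6.67), and it was called higher. CG42633 had 1 and 2 reads in gut and 4 and 14 in carcass, below the 30 reads required. Desi, the next gene beyond it, had 61 and 193 reads in thorax, a ratio of 1.55 (1.16 to 2.11), and TfIIFbeta, farther along, had a ratio of 0.708. The control and the foxo RNAi flies also differ in the strain crossed to the driver, and the part of strain in these values was not tested.

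**Figure D5:**
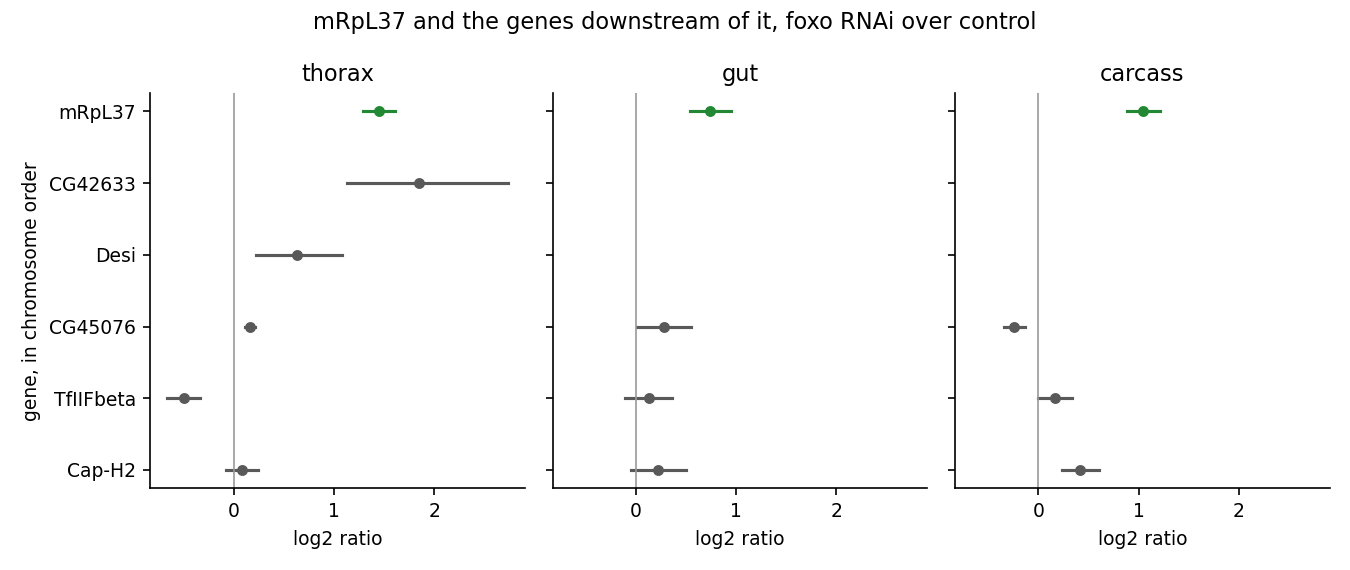
Log2 ratio, foxo RNAi over control, of mRpL37 (green) and the 5 genes with reads downstream of it (grey) in chromosome order in thorax, gut and carcass, with 95% counting intervals; genes with fewer than 30 reads in a tissue have no point there. mRpL37 stood at 1.45, 0.74 and 1.05, and CG42633 at 1.85 in thorax.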

How the data were processed

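The files hold whole-number read counts per gene, which the authors deposited without normalization, and RPKM values computed by the authors over the genomic span of each gene, per the file headers. Reads of 50 bases were mapped to Release 6 of the fly genome, per the labels' series text. No source used here names the aligner, the counter or the strand setting. Gene spans, exon lengths and neighbours came from Ensembl release 115, in which the spans of all 73 members matched the files.

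Tissue comparisons used edgeR 4.0.16 (R 4.3.3; quasi-likelihood test, TMM, filterByExpr, Benjamini-Hochberg adjustment) on the 6 libraries with genotype as a term; the common biological coefficient of variation was 0.296. On simulated counts with 200 genes changed, 89.5% were recovered for thorax against gut and 89.0% for thorax against carcass. Those genes were well counted and changed by the same factor in thorax. All other genes were left equal between tissues, every gene had the common spread, and genotype had no effect. In the real data 54.6% and 41.2% of genes passed in these comparisons, so the simulated rates need not hold there. False calls in the simulation were 6.28% and 7.77%. Genes that were raised in the simulation had a median log2 difference of 2.03 and 2.08. Recovery of smaller differences was not tested. Genotype ratios added 0.5 to each count before TMM scaling of the pair, with exact Clopper-Pearson intervals (scipy 1.17.1). The genotype coefficient of the tissue model was tested as an addition. PCR copies are not independent molecules, so intervals cover counting error only. Whether the flies of a library were pooled, and from how many cultures, is not given, so p-values measure the spread between these libraries.

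Genes named are the called members, the 4 highest and 4 lowest ratios per tissue, the 5 largest tissue differences per direction, the 6 highest and lowest levels, and members at 0. The members, lists and rules were chosen with earlier results of these data known. Of 12 listed translation factor genes, 10 were matched. Alternatives were other scalings, read minimums, no added count, DESeq2 1.42.0, limma 3.58.1 on log2(RPKM + 1), no filter, no genotype term, each library left out, and members without overlap. A motif search in promoters was not run, because no promoter sequences were used here.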

Additional observations from a re-analysis of the deposited data

Results flagged for a closer look

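With 1 library per genotype and tissue, none of the following differences was tested, and an interaction term would leave no residual degrees of freedom. The median log2 ratio of the members, foxo RNAi over control, was below 0 in thorax (-0.21) and above 0 in carcass (0.35). Among single members, mRpL38 had a ratio of 0.561 in thorax and mRpL18 of 0.659, while both were above 1 in carcass. Both belong to the 31 members with an interval below equality in thorax and above it in carcass. That number is about what the 43 members below in thorax and the 52 above in carcass, among 71, imply without any link. The median log2 difference of the members between thorax and carcass was 0.46 in the control libraries and -0.14 in the foxo RNAi libraries.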

How the results depend on the processing

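With total counted reads, 1 member was called in thorax, as with RPKM values and among members without overlap, and mRpS23 was then not called (0.509 and 0.521). The median log2 ratio became -0.12, 0.31 and 0.51 in thorax, gut and carcass with total reads, -0.11, 0.30 and 0.50 with RPKM, and -0.16, 0.13 and 0.37 without overlapping members (an alternative chosen after seeing the data); DESeq2 size factors gave 0.31 in carcass. Tissue calls changed their leading direction with total reads (19 calls for thorax against gut, 15 for thorax against carcass, 2 for gut against carcass) and with limma on RPKM (16, 16 and 3, of which 10, 7 and 0 were higher). Over all genes, in the same order, 4996, 4051 and 5194 passed with total reads and 4780, 4043 and 4480 with limma. DESeq2's Wald test called 24 members between thorax and carcass, and 4408 genes in all. Without overlapping members 8, 6 and 1 were called. Leaving out 1 library gave 1 to 14 calls for thorax against gut, 5 to 12 for thorax against carcass and 0 to 0 for gut against carcass (unadjusted p under 0.05 for 0 to 22, and 14 with all libraries; DESeq2 called 5). The lowest count for thorax against gut, 1, came without the control gut, and 4 without the foxo RNAi gut, 10 without the control thorax, and 14 (9 higher, 5 lower) without the foxo RNAi thorax. For thorax against carcass, 5 remained without the control thorax, 7 (0 lower) without the foxo RNAi carcass, 11 (5 higher, 6 lower) without the control carcass and 12 (0 lower) without the foxo RNAi thorax. Left-out fits assume that a lone library varies like the others, and in each of them fewer of all genes passed as well. In all 10 alternatives, mRpS5, mRpL16, mRpL41 and mRpS30 passed for thorax against carcass and mRpL51 for thorax against gut. Others lost calls: mRpS2 passed in 5 of the 10 (0.62 to 1.77), mRpL41 in 6 against gut (0.70 to 1.34), mRpL33 in 6 (-1.42 to -0.77), mRpS30 (0.60 to 1.31) and mRpS7 (0.54 to 1.30) in 7 against gut, and between gut and carcass mRpS5 and mRpL28 in 4, mRpL24 in 3 and mRpL48 in 2. Shares without the most abundant genes were 0.303% and 0.263% in thorax, 0.196% and 0.225% in gut, and 0.206% and 0.279% in carcass, control first. The cause of these changes was not tested. The genotype test over 3 tissues called 1 member with DESeq2 and 0 with limma, other scalings or no filter; it gave 0 to 0 without any 1 library (1 at an unadjusted p under 0.05 each time). No paired analysis was possible because the labels give no replicate numbers; tissue is the pairing in the genotype test. A level at the floor of 3 reads is 0.0872 to 0.226 CPM, under every measured member.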
